A study of Rattus norvegicus with 22 samples.

Results

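Of 32545 gene identifiers counted in rat cortex, 64 had a lower level in every injured hemisphere than in every sham hemisphere 24 h after a penetrating ballistic brain injury (PBBI). The genes were chosen by their ipsilateral CPM, the count scaled to the library's total count. They had a mean of 1 CPM or more in the ipsilateral sham cortex, all 6 ipsilateral PBBI values below all 5 sham values, and a PBBI mean of at most 0.67 of the sham mean. Of the 13366 genes that reached the sham mean, 73 (0.546%) had no overlap of that kind, and nothing is read from that count, since it is the choice itself. Another 6 genes met the measured conditions and were left out by name (Vipr2, Ttpa, Cyp4f4, Siglec5) or by the start of their symbol, Slc or Kcn (Slc22a3, Kcnt2). The mirrored rule, all PBBI values above all sham values, gave 340 genes.

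All 11 rats were adult male Sprague-Dawley animals (the labels spell the strain Sprague-Daley) with EEG electrodes implanted before the procedure. The 6 PBBI rats (81, 83, 85, 88, 90 and 96) received a right frontal injury from a probe with an inflatable balloon that leaves a cavity, and the 5 sham rats (82, 84, 86, 91 and 94) underwent the craniectomy without the probe. Cortex was taken from the injured side (ipsilateral) and the opposite side (contralateral) of each rat, which gave 22 RNA libraries depleted of ribosomal RNA, with 42085341 to 63412426 counts each. Each library is 1 hemisphere of 1 rat. The titles of both libraries of rat 81 and of the contralateral library of rat 82 hold the letters PFC, and the others CC or CI. Whether this marks a different region of cortex is not stated.

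Glial and neuronal metabolism forms the background of this set. Astrocytes take up and convert glutamate, proline and adenosine, run glycolysis, supply antioxidants and express a distinctive set of membrane proteins, and they take a reactive state with more intermediate filament protein after injury. Neurons read peptide and transmitter signals through receptors coupled to G proteins, whose activity regulators of G protein signalling bring to an end. In bulk tissue, fewer cells of a type and less RNA per cell cannot be told apart.

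The members spanned a wide range of levels and had at least 1 count in each of the 22 libraries. Their ipsilateral sham means ran from 1.10 CPM for Igfn1 to 910 CPM for Aldoc, with a median of 16.5 CPM against 20.4 CPM for all 13366 genes. Per kilobase of annotated length, Aldoc (541 CPM per kb, range 415 to 719 over the 5 sham rats) and Sepp1 (489, range 368 to 618) had the highest sham levels and overlapped each other. ENSRNOG00000009629 (254, range 205 to 327) and Plekhb1 (184, range 145 to 228) followed and also overlapped each other, while Gstm7 (74.2, range 50.4 to 104) lay below both. The sham levels of the members were about as steady between rats as those of other genes. Contralaterally, where no value was used for the choice, their median coefficient of variation in sham was 23.3% against 26.1% for all genes with a mean of 1 CPM or more.

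In the injured cortex the PBBI mean was between 15.2% and 66.8% of the sham mean, with a median of 49.9%. It was at or below 50% of sham in 32 members. These values chose the members and are given as a description. The separation was often narrow. In 42 of 64 members the highest PBBI value was over 90% of the lowest sham value, and in 0 members was it under 50%.

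**Figure D1:**
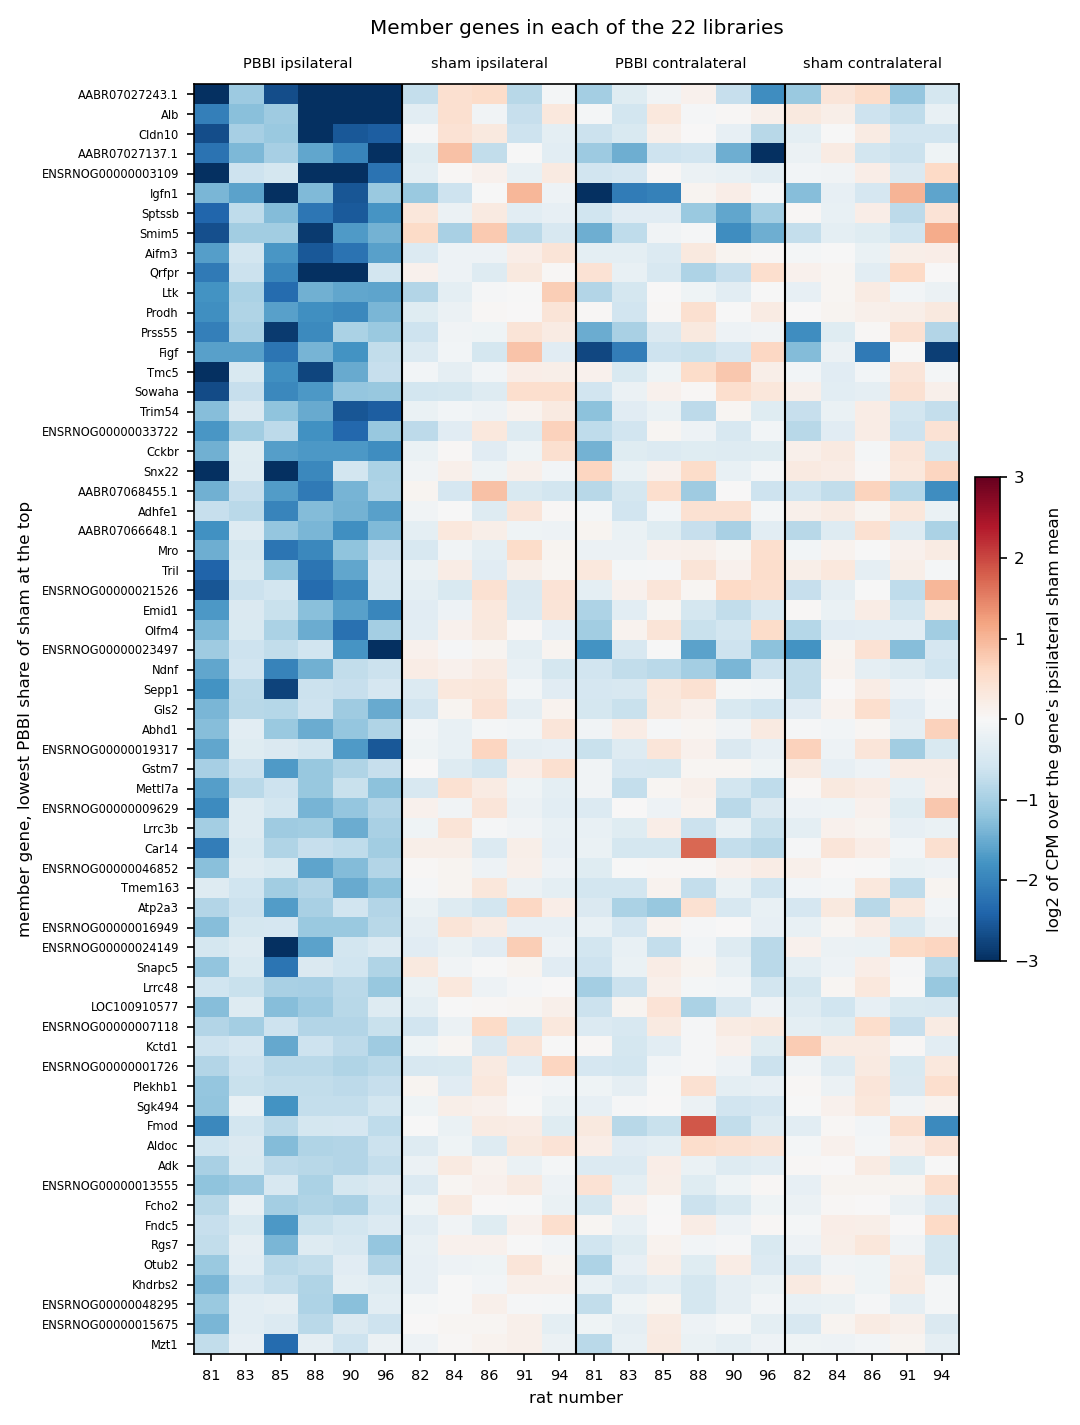
Level of each of the 64 members (rows) in each of the 22 libraries (columns, by rat number and group) as log2 of its CPM over its own ipsilateral sham mean, with blue for lower and red for higher; colours saturate at the ends of the scale. The ipsilateral PBBI block is blue throughout because it chose the genes, rat 83 is its palest column, and the contralateral PBBI block is mostly near 0.

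Symbols could be paired with 50 members, of which 5 are names of genomic clones or loci, and 14 members are known here by their identifier alone. The paired symbols come from lists of genes called on these same samples, so the names are not an independent sample of the set. Promoters, the 250 bases before and 50 after each start site in RefSeq (build GRCr8), were found for 35 of the 45 members with an ordinary gene symbol. The bases upstream of the start are shown for the 3 astrocyte genes among the members that were matched, since these genes are described first and were low together in the injured cortex. Capitals mark a GC box, GGGCGG or its reverse complement, and Cldn10 holds none of the motifs searched.
Cldn10, chr15:102269608-102269857, plus strand: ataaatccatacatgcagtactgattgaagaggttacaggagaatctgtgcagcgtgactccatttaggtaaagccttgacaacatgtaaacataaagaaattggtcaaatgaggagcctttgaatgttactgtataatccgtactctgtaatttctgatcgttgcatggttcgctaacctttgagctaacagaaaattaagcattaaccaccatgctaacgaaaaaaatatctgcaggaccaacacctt
Tril, chr4:84257627-84257876, minus strand: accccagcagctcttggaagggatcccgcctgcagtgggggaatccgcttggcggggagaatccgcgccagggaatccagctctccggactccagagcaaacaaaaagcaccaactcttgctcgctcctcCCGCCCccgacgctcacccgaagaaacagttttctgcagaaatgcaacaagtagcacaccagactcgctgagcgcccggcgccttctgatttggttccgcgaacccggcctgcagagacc
Aldoc, chr10:63715294-63715543, plus strand: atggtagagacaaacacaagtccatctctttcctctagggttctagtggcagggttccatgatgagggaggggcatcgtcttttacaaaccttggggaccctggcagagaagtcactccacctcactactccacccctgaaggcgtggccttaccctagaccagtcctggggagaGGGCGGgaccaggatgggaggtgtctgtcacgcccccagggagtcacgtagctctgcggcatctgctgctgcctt

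Over the whole 300-base windows, both strands read, the GC box occurred in 22 of 35 member promoters (62.9%), against 43.1% of 19004 promoters of protein-coding genes and 34.9% of all 27455. The nuclear factor I motif TTGGCA was in 8 (22.9%, against 12.7% of protein-coding promoters), and the Alb promoter held 1. The core TGACG of the cyclic AMP response element was in 5 (14.3%, against 24.2%), and the full element TGACGTCA, which contains that core, was in 1 (2.86%, against 2.22%). The E-box CACGTG was in 1 (2.86%, against 7.27%). The members' promoters had a median GC content of 59.0%, against 55.3% for protein-coding genes. These matches are a description of letters in a window, and Cldn10, Tril and Aldoc show how unlike each other the windows were, with GC contents of 37.0%, 62.3% and 56.0%.

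The astrocyte genes among the members were Cldn10, Prodh, Tril and Aldoc. Cldn10, a claudin of cell junctions, measured 6.34 to 27.4 CPM (median 9.58) in the 6 injured hemispheres and 52.7, 72.9, 66.2, 35.2 and 44.3 CPM in the 5 sham rats. Its PBBI mean was 26.5% of sham (14.4 ± 9.20 against 54.3 ± 15.4 CPM, SD, n = 6 and 5), and rats 83 and 85, at 27.4 and 24.9 CPM, stood above the other injured rats. Prodh, the mitochondrial enzyme that starts proline breakdown, measured 13.8 to 28.5 CPM (median 15.8) in PBBI and 40.8, 46.8, 54.2, 53.7 and 68.8 CPM in sham. Here 5 injured rats lay between 13.8 and 20.4 CPM and rat 83 stood above them, and the mean was 34.4% of sham.

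Tril, a membrane partner of Toll-like receptors, measured 20.4 to 79.0 CPM (median 42.1) in PBBI and 94.7, 126, 85.4, 122 and 114 CPM in sham. The injured rats were spread widely, with rats 83 and 96 at 79.0 and 76.8 CPM, close under the lowest sham rat. Aldoc, the brain isoform of the glycolytic enzyme aldolase, measured 372 to 669 CPM (median 537) in PBBI and 700, 827, 699, 1115 and 1212 CPM in sham. Its mean was 58.5% of sham, and the gap between rat 83 and the lowest sham rats was small beside the spread within sham.

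Gls2, a glutaminase that releases glutamate from glutamine, measured 25.0 to 46.2 CPM (median 36.9) in PBBI and 48.0, 75.8, 96.5, 59.7 and 76.9 CPM in sham. Its groups were separated by rat 88 at 46.2 and sham rat 82 at 48.0 CPM. Adk, adenosine kinase, which clears adenosine by phosphorylation, measured 49.3 to 70.1 CPM (median 54.6) in PBBI and 85.5, 117, 103, 83.3 and 92.3 CPM in sham, and its mean was 58.8% of sham. Gstm7, a glutathione S-transferase, measured 45.3 to 94.1 CPM (median 76.5) in PBBI and 149, 114, 100, 169 and 206 CPM in sham. Gstm7 belongs to a family of similar genes, and how reads shared by such genes were counted is not stated. Adhfe1, an oxidoreductase of hydroxy acids, and Car14, a carbonic anhydrase, had means of 42.5% and 53.2% of sham. The 7 enzymes of amino acids, sugars, nucleosides, glutathione and carbonate thus ran from 34.4% to 58.8% of sham.

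Sptssb, a small subunit of the enzyme that starts sphingolipid synthesis, was among the members with the lowest shares. It measured 4.95 to 16.9 CPM (median 7.34) in PBBI and 35.8, 25.2, 34.1, 22.9 and 24.1 CPM in sham, a mean of 31.4% of sham. Aifm3, a mitochondrial protein of the apoptosis-inducing factor family, measured 6.24 to 24.9 CPM (median 11.3) in PBBI and 27.3, 32.6, 33.0, 41.8 and 48.1 CPM in sham. Rat 83 was the one near sham, and the other injured rats lay at 11.9 CPM or below. Abhd1, a hydrolase, and Mettl7a, a methyltransferase family protein, had means of 50.2% and 50.9% of sham.

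**Figure D2:**
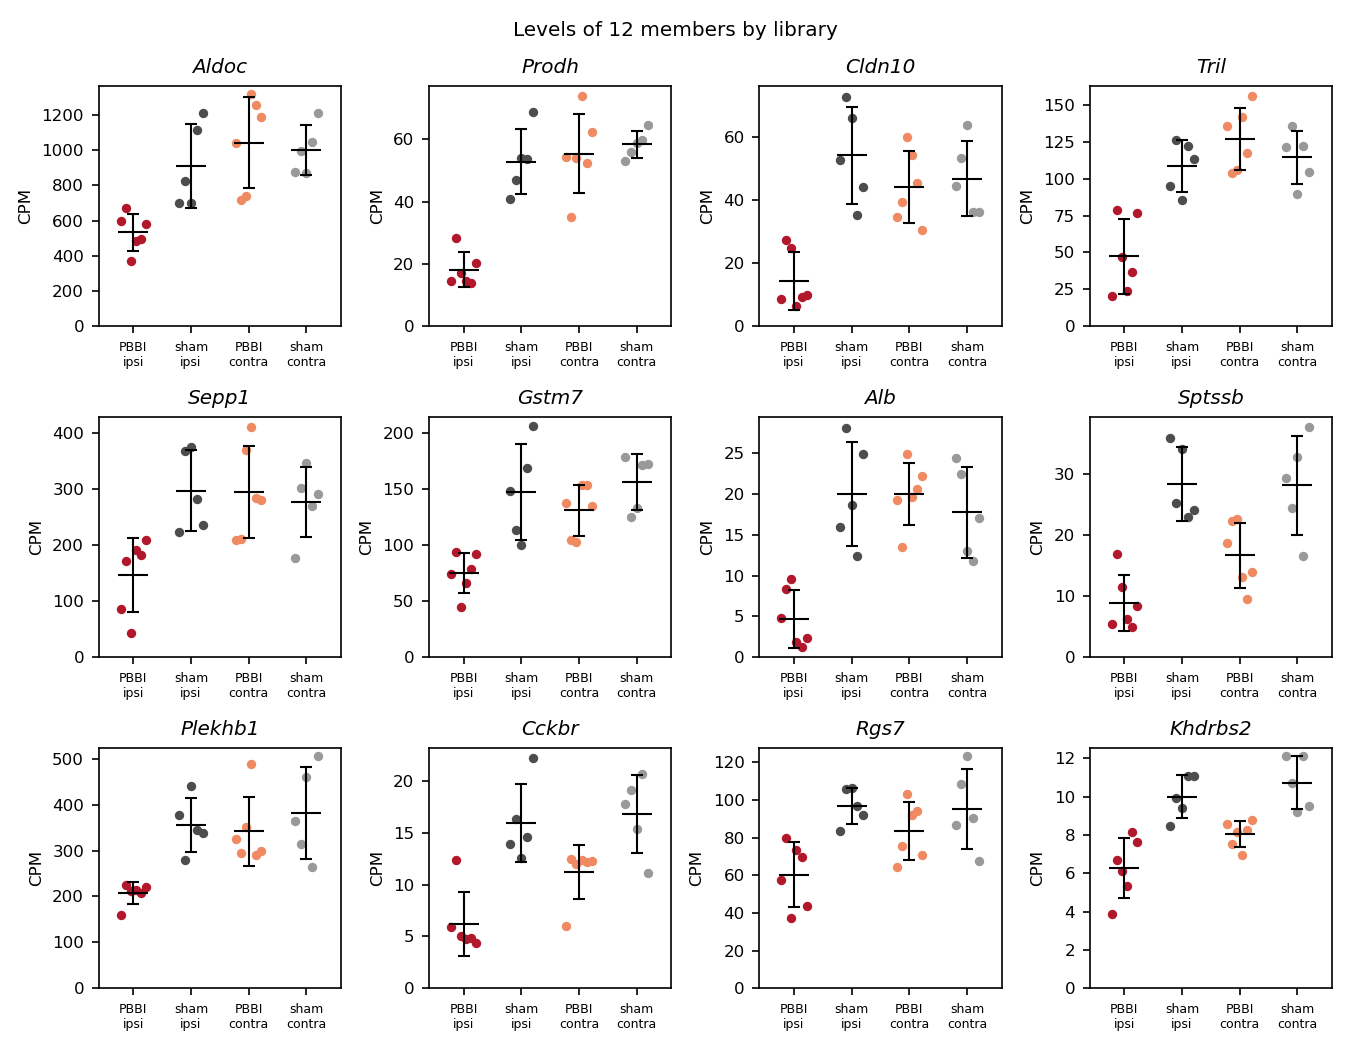
CPM of 12 members in each library, 1 point per hemisphere, with the mean and SD in black (n = 6 PBBI, 5 sham); each vertical axis starts at 0 and has its own scale. Ipsilateral PBBI lies below ipsilateral sham by the choice of the genes, the contralateral groups overlap in 11 of the 12, and Khdrbs2 is the exception, with 6.94 to 8.75 CPM in PBBI and 9.18 to 12.1 CPM in sham.

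Among receptors, Cckbr, the cholecystokinin B receptor of cortical neurons, measured 4.36 to 12.4 CPM (median 4.95) in PBBI and 13.9, 16.3, 12.6, 14.6 and 22.2 CPM in sham. The highest PBBI value, 12.4 CPM in rat 83, nearly touched the lowest sham value of 12.6 CPM, and the other 5 injured rats were at 5.89 CPM or below. Qrfpr, the receptor of the neuropeptide QRFP, was scarce, at 0.152 to 0.965 CPM (median 0.346) in PBBI and 1.55, 1.28, 1.09, 1.73 and 1.46 CPM in sham. Ltk, a receptor tyrosine kinase, measured 4.91 to 12.7 CPM (median 8.26) in PBBI and 13.3, 20.0, 23.7, 24.1 and 40.9 CPM in sham. Rgs7, which speeds the inactivation of G proteins in neurons, kept more of its level, with 37.3 to 79.8 CPM (median 63.9) in PBBI and 83.4, 106, 107, 96.7 and 92.3 CPM in sham, a mean of 62.2% of sham.

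The ion pump Atp2a3, a calcium ATPase of the endoplasmic reticulum, measured 0.766 to 1.66 CPM (median 1.34) in PBBI and 2.14, 1.87, 1.69, 3.75 and 2.81 CPM in sham. Rat 90 at 1.66 CPM and sham rat 86 at 1.69 CPM nearly touched. Tmem163, a zinc transporter, and the membrane proteins Tmc5 and Lrrc3b had means of 53.7%, 36.7% and 51.6% of sham. The group of 5 ion pumps and membrane proteins, Cldn10 included, ran from 26.5% to 53.9%.

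The 9 secreted and matrix proteins held the lowest share of any member with an ordinary gene symbol. Alb, serum albumin, a plasma protein made mainly in liver, measured 1.29 to 9.61 CPM (median 3.57) in PBBI and 16.0, 28.1, 18.7, 12.5 and 24.9 CPM in sham, a mean of 23.6% of sham. Rats 85 and 83 were the highest of the injured rats, at 9.61 and 8.39 CPM. Sepp1, selenoprotein P, which carries selenium between cells, measured 43.2 to 209 CPM (median 177) in PBBI and 224, 369, 376, 282 and 236 CPM in sham. Here the order of rats was turned. Rats 85 and 81 were far below the rest, at 43.2 and 85.8 CPM, and the other injured rats lay between 171 and 209 CPM.

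Fndc5, the membrane precursor of irisin, measured 31.0 to 75.9 CPM (median 66.6) in PBBI and 81.0, 93.8, 79.4, 111 and 143 CPM in sham, with 5 of 6 injured rats within 62.6 to 75.9 CPM. Figf, a vascular endothelial growth factor, Ndnf, a neurotrophic factor, Fmod, a collagen-binding proteoglycan, Emid1, Olfm4 and the protease Prss55 made up the rest of the secreted group, with means of 35.6%, 47.8%, 58.5%, 44.5%, 45.0% and 35.5% of sham. Prss55 was among the scarce members, at 0.176 to 0.659 CPM (median 0.464) in PBBI and 0.832, 1.18, 1.16, 1.68 and 1.52 CPM in sham.

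Plekhb1, a membrane-binding protein abundant in myelinating cells, had the tightest PBBI CPM, relative to its mean, of the 8 members above 100 CPM in sham. In CPM, 5 of 6 injured rats lay between 208 and 225 and rat 81 at 161. With TMM scaling, a rescaling of libraries described below, rat 85 was the highest injured rat and overlapped sham, so this tightness holds for CPM only. Sham rats measured 377, 280, 440, 346 and 338 CPM, and the mean was 58.2% of sham. Fcho2, which starts clathrin-coated pits, measured 57.4 to 99.4 CPM (median 63.3) in PBBI and 106, 140, 117, 115 and 101 CPM in sham, again with rat 83 close under sham. Snx22, a sorting nexin, had a mean of 40.1% of sham.

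The 7 proteins of RNA, transcription, ubiquitin and the cytoskeleton ran from 38.2% to 66.8% of sham, with a median of 56.9%. Khdrbs2, a splicing regulator of neurons, measured 3.86 to 8.15 CPM (median 6.39) in PBBI and 8.46, 9.93, 9.39, 11.1 and 11.1 CPM in sham. Kctd1, a repressor of transcription, measured 14.7 to 30.0 CPM (median 26.3) in PBBI and 39.2, 44.4, 31.5, 55.6 and 42.6 CPM in sham. Trim54, Snapc5, Lrrc48 and Otub2 had means of 38.2%, 55.3%, 55.5% and 62.8% of sham.

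Mzt1, a partner of gamma-tubulin, lay just inside the limit at 66.8% of sham (6.41 ± 2.44 against 9.60 ± 0.969 CPM). The next member inside was ENSRNOG00000015675 at 64.9%. Just outside were ENSRNOG00000008666 at 67.1% and AC091229.1 at 68.1%, which also had no overlap between groups. Below the limit on the sham mean, Sds, serine dehydratase, missed the set at 0.995 CPM in sham although its PBBI mean was 7.09% of it, and ENSRNOG00000003785 missed it at 0.957 CPM.

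The remaining members with a gene symbol are of less certain function in cortex. Igfn1 measured 0.0957 to 0.507 CPM (median 0.395) in PBBI and 0.509, 0.722, 1.09, 2.21 and 0.993 CPM in sham, the smallest gap of the scarce members named here. Smim5 measured 0.204 to 0.725 CPM (median 0.506) in PBBI and 2.21, 0.757, 2.57, 0.856 and 1.06 CPM in sham. Sowaha, Mro and Sgk494 had means of 37.3%, 43.2% and 58.2% of sham.

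The lowest share of all belonged to a locus named for its genomic clone, AABR07027243.1, at 15.2% of sham. It measured 0.18 to 0.798 CPM in 5 injured rats and 2.35 CPM in rat 83, against 3.04, 7.04, 7.39, 2.83 and 4.83 CPM in sham. AABR07027137.1, at 28.8% of sham, measured 0.049 to 1.15 CPM (median 0.678) in PBBI and 1.78, 4.17, 1.38, 2.25 and 1.84 CPM in sham. The 5 clone-based or locus names ran from 15.2% to 56.5% of sham and the 14 members without a symbol from 30.1% to 64.9%. The most abundant of these 14, ENSRNOG00000009629, had means of 215 ± 77.0 CPM in PBBI and 417 ± 79.6 CPM in sham.

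The 6 injured rats did not carry the reduction equally. The median member stood at 38.4% of its sham mean in rat 81, 41.1% in rat 88, 44.6% in rat 90, 45.1% in rat 85, 53.0% in rat 96 and 67.6% in rat 83. Rat 83 had the highest PBBI value for 38 of the 64 members and the lowest for 1. Rat 85 had the lowest for 21 and the highest for 9. With TMM scaling (a rescaling of libraries) rat 83 was highest for 30 members and rat 85 for 29, and rat 85 was lowest for 8. Its log2 CPM over all genes had a mean correlation of 0.796 with the other ipsilateral PBBI libraries, against 0.913 to 0.930 for the others. Among sham rats, rat 82 had the lowest value for 25 members.

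**Figure D3:**
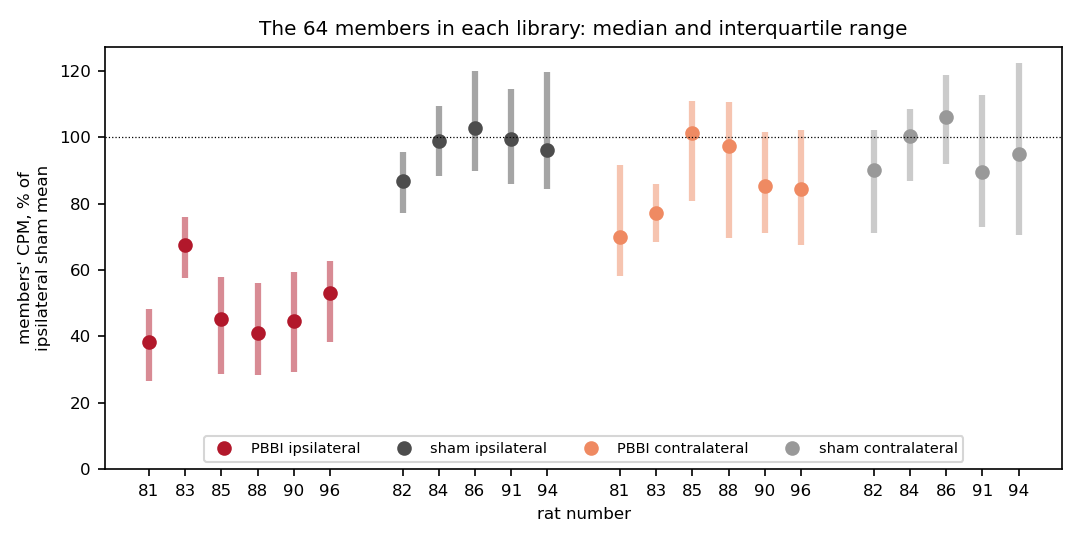
Median (point) and interquartile range (bar) of the 64 members' CPM in each library, as a percent of each member's ipsilateral sham mean (dotted line at 100). The 6 ipsilateral PBBI medians lie between 38.4% and 67.6%, with rat 83 highest, and the contralateral PBBI medians between 70.1% and 101%, beside 89.6% to 106% in contralateral sham.

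Which genes enter the set depends on these libraries and on the scaling. Without rat 83 the same conditions gave 279 genes, without rat 85 137, without sham rat 82 146, without sham rat 86 100 and without PBBI rat 81 63, of which 64, 61, 64, 62 and 60 were among the 64 members. A further 237 genes met the other conditions with 5 of 6 injured rats below every sham rat. The TMM method, which rescales each library so that most genes do not move, gave rat 85 a factor of 0.696 against 0.879 to 1.19 in the other 10 ipsilateral libraries. With TMM-scaled CPM the rule gave 124 genes, 42 of the 64 among them, and with the size factors of DESeq2 (RLE) 123 genes, 40 of the 64 among them. In each of the 22 members that TMM left out, Cldn10, Alb, Gls2 and Plekhb1 included, rat 85 was the highest PBBI rat and overlapped sham. Direction of the means did not depend on scaling, since all 64 were at 14.3% to 60.5% of sham with TMM and 14.3% to 61.3% with RLE. Without rat 85, 64 of 64 had no overlap under TMM.

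Markers of other cells moved in the same libraries. Of the 10 blood leukocyte genes with a symbol, 10 had a higher mean in PBBI and 4 did not overlap sham. All PBBI values lay above all sham values in 2.61% of the 22670 genes with an ipsilateral count, and symbols were paired mostly with genes already called on these samples. The summed level of the 10 genes was 205 to 1233 CPM in PBBI against 93.0 to 207 CPM in sham. Elane, a neutrophil protease, was at 0 in every ipsilateral sham library. Microglia genes summed to 238 to 424 CPM against 91.2 to 189 CPM, with 4 of 5 higher in mean. The most abundant in PBBI were C1qb (mean 128 against 47.6 CPM) and C1qc (127 against 40.4 CPM). Siglech was near 0 (0.180 against 0.00704 CPM). Tmem119 went the other way, at 58.5% of sham with overlapping groups. Of the 29 neuron genes listed, only 11 had a symbol (Camkv, Mapt, Scg3 and the like), and the rest could not be examined. These 11 were present in every library, and all had a lower mean in PBBI, 2 of them (Cckbr and Rgs7) as members. Over all 16104 genes fitted with TMM scaling, the ipsilateral log2 fold change of PBBI over sham was below 0 in 51.7%. Without Cckbr and Rgs7, the neuron genes with a symbol summed to 1253 to 2678 CPM in PBBI against 2765 to 3513 CPM in sham. Of the 16 oligodendrocyte genes listed, 4 had a symbol, and all 4 had a lower mean, with Plekhb1 the single member. The part of these shifts in the members' values was not tested.

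The astrocyte list did not move as a block. Of 24 astrocyte genes with a symbol, 20 had a lower mean in PBBI, and the 4 without overlap were the members Cldn10, Prodh, Tril and Aldoc. The other 4 had a higher mean, and 3 of these did not overlap sham: Gfap, the astrocyte filament protein, at 5182 against 560 CPM, the filament protein Vim at 577 against 67.3 CPM, and Cd44, a matrix receptor, at 147 against 10.3 CPM. Ndrg2, which marks astrocytes at high level, stood at 61.4% of sham with overlapping groups. Without the members, the astrocyte list summed to 5105 to 14591 CPM in PBBI and 6233 to 9664 CPM in sham, a sum in which Gfap and genes of the opposite direction offset each other.

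Each pathway list held 1 or 2 members. Members made up 2.74% of the identifiers with a symbol and 0.479% of the 13366 expressed genes. Amino acid metabolism had 2 (Prodh and Gls2) of 10 genes with a symbol, of which 9 had a lower mean, and fatty acid, sphingolipid and sterol metabolism had 1 (Sptssb) of 14, of which 14 had a lower mean. Glutathione, xenobiotic and redox enzymes had 2 (Gstm7 and Sepp1) of 15, with 11 lower and 4 higher in mean. Glycolysis, lactate, adenosine and sodium pump genes had 2 (Aldoc and Adk) of 11, with 8 lower. Calcium and calmodulin signalling had 1 (Atp2a3) of 14, with 14 lower, regulators of G protein signalling 1 (Rgs7) of 7, with 5 lower, and lipid, peptide and muscarinic receptors 2 (Cckbr and Qrfpr) of 10, with 7 lower. The lists were drawn up with earlier results of these data known. Their member counts, beside the shares above, are a description and not evidence that a pathway is overrepresented. Since a symbol was mostly paired with genes already called on these samples, the shares of these lists that were lower are not independent evidence of a direction.

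The contralateral cortex, which the choice did not use, addresses whether the members also differed on the side away from the probe. With edgeR's quasi-likelihood test and Benjamini-Hochberg adjustment over 15907 genes, 0 of the 64 members were called, and 0 genes (0%) over the whole table. In simulated counts of this comparison, the test recovered 96 of 200 genes changed by 1 log2 unit. A member that was not called is thus not shown to be unchanged. The smallest adjusted p of a member was 1.00, and 0.173 to 1.00 over the alternatives. The members lay mostly on the lower side. The log2 fold change of PBBI over sham was below 0 in 53 of 64, against 51.2% of all genes, and its median was -0.18 (range -1.06 to 0.43), against -0.01 for all genes. An unadjusted p under 0.05 was reached by 8 members, all 8 lower, against 1.02% of all genes that were lower with such a p. DESeq2 gave 9 such members with its prior and 9 without, and limma voom with sample weights gave 22, 20 of them lower, and called 0. Over all genes and both directions, the share with such a p was 2.30% with edgeR, 2.50% and 2.66% with DESeq2 and 13.3% with voom, so it rose with voom across the whole table. The hemispheres of a rat share deviations from their group (correlations across genes of 0.246 to 0.758 in the 11 rats), so the contralateral side is not wholly separate from the values that chose the genes.

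Khdrbs2 had the smallest contralateral p and was the only member with all 6 PBBI rats below all 5 sham rats on that side, where 8 of 13416 genes (0.0596%) did so. It measured 6.94 to 8.75 CPM (median 8.20) in PBBI and 12.1, 10.7, 9.18, 12.1 and 9.52 CPM in sham, and its log2 fold change was -0.46 (SE 0.15, edgeR unadjusted p = 0.00956, adjusted p = 1.00). Cckbr measured 5.97 CPM in rat 81 and 11.9 to 12.4 CPM in the other 5 PBBI rats, against 17.8, 19.1, 15.3, 20.6 and 11.1 CPM in sham. Its log2 fold change was -0.61 (SE 0.22), and the groups overlapped only through sham rat 94.

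Sptssb measured 9.59 to 22.6 CPM (median 16.3) in contralateral PBBI and 29.4, 24.5, 32.7, 16.6 and 37.7 CPM in sham, where rat 91 was the sham rat inside the PBBI range. Its log2 fold change was -0.82 (SE 0.30). Kctd1 measured 29.6 to 46.4 CPM (median 38.0) and 71.8, 50.5, 51.0, 43.9 and 34.5 CPM, with a log2 fold change of -0.47 (SE 0.18). ENSRNOG00000024149 measured 1.12 to 1.86 CPM (median 1.42) and 2.16, 1.75, 1.72, 2.92 and 3.06 CPM, with a log2 fold change of -0.74 (SE 0.25). The other 3 members with an unadjusted p under 0.05 were AABR07027137.1 (-1.06), Ndnf (-0.53) and Mettl7a (-0.47), and none of the 8 passed the adjusted threshold.

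Several members lowered in the injured cortex were near sham on the other side. The contralateral log2 fold change was -0.02 (SE 0.19) for Aldoc, 0.02 (SE 0.23) for Sepp1, 0.09 (SE 0.15) for Tril, 0.11 (SE 0.24) for Alb, -0.15 (SE 0.17) for Prodh and -0.15 (SE 0.23) for Cldn10. For Alb the 6 PBBI rats measured 13.6 to 24.9 CPM (median 20.1), within the sham range of 11.8 to 24.4 CPM but for rat 85. For Tril they measured 104 to 156 CPM (median 127), against 122, 136, 89.5, 122 and 104 CPM in sham. Of the 9 secreted and matrix proteins 4 were lower contralaterally, whereas 7 of 7 metabolic enzymes, 4 of 4 receptors and regulators and 7 of 7 proteins of the RNA and cytoskeleton group were. These counts use only the sign of the log2 fold change, which was below 0 in 51.2% of all genes. Some signs rest on values near 0, as for Aldoc, whose contralateral CPM mean was 104% of sham. These groups were drawn up with the values known and their difference was not tested.

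**Figure D4:**
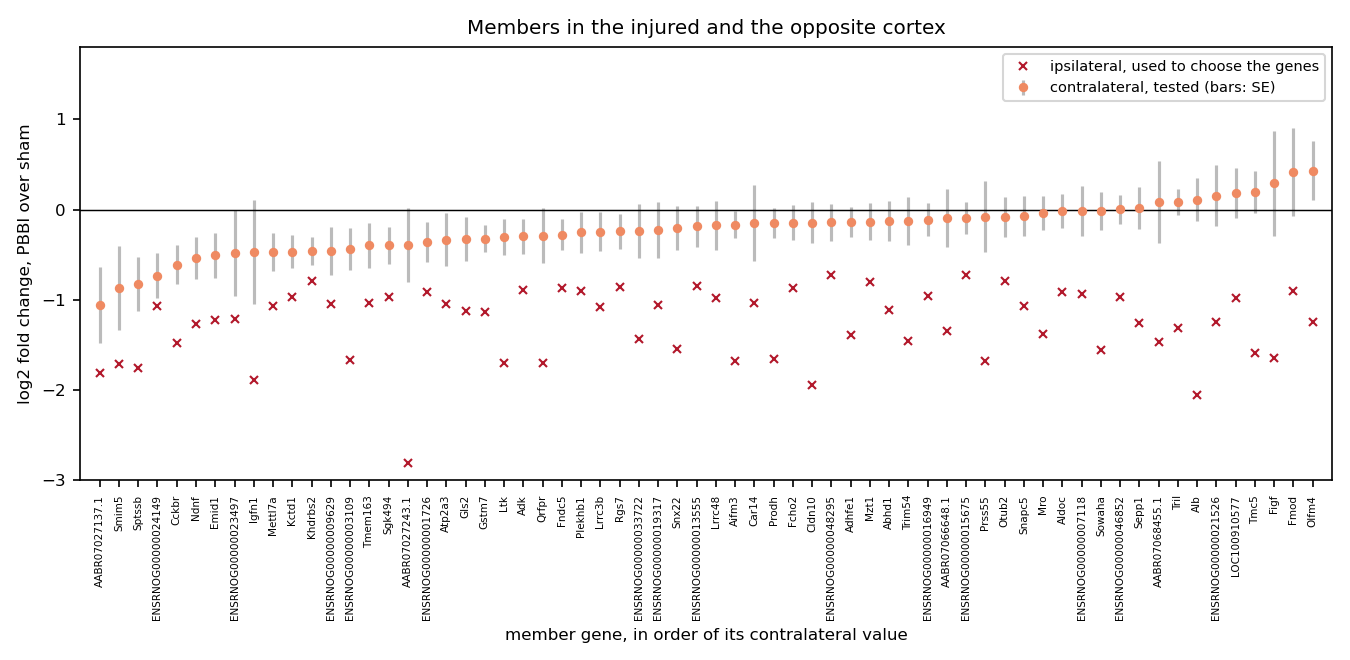
Log2 fold change of PBBI over sham (edgeR) for each of the 64 members, ordered by the contralateral value (points, bars give the SE; n = 6 and 5); crosses show the ipsilateral value, which the choice used. Of the 64 points 53 lie below 0 and their median is -0.18, and the members at both ends of the order have low ipsilateral values.

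The highest contralateral values belonged to Olfm4 (0.43, SE 0.33) and Fmod (0.42, SE 0.48). For Fmod 1 library set the value, since PBBI rat 88 had 26.8 CPM and the other 10 contralateral libraries 1.97 to 10.2 CPM. The same library had 19.2 CPM of Car14, against 3.25 to 8.08 CPM in the others, and 43.7 CPM of Kl, a marker of choroid plexus, against 0.101 to 0.613 CPM. Without this library the contralateral log2 fold change of Fmod was -0.23 (SE 0.34) in place of 0.42, and that of Car14 was -0.80 (SE 0.23) in place of -0.15.

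Within the injured rats, the ipsilateral side was lower than the contralateral side in all 6 rats for 48 of 64 members, against 5.99% of 13366 genes. These values share the ipsilateral libraries that chose the genes and are a description. The median log2 difference was -0.86 and all 64 were below 0. By rat, the injured side was the lower for 64 members in rat 85, 63 in rat 88, 62 in rat 96, 61 in rat 90, 57 in rat 81 and 54 in rat 83. These counts by rat used CPM, and their shares over all genes were not computed. Rat 83, with the highest ipsilateral PBBI CPM for 38 members, had the fewest members lower than on its own opposite side. Its contralateral median was 77.3% of the ipsilateral sham mean. With TMM scaling rat 83 was highest for 30 members and rat 85 for 29, so no link between level and count is read from this. In sham rats the hemispheres were close, with a median log2 difference of 0.04 and 25 of 64 members lower on the ipsilateral side. Tmc5 (-1.72), Prodh (-1.63), Cldn10 (-1.53) and Alb (-1.95) had large differences between the hemispheres of injured rats. The 8 members with a contralateral edgeR unadjusted p under 0.05 ran from -0.90 (Sptssb and Cckbr) to -0.34 (Ndnf), with Khdrbs2 at -0.39. A low contralateral value makes this difference smaller by itself.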

How the data were processed

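Cortical RNA from both hemispheres of 6 PBBI and 5 sham rats was analysed here. The authors made stranded libraries without ribosomal RNA, aligned read pairs with STAR 2.4.2a and counted them on genes of Ensembl Rnor 6.0 with featureCounts 1.4.3-p1, as given in the submitters' processing notes and the paper. The deposited values are raw counts with no normalization. How strand and reads with several alignments were treated is not given in the sources used here. Counts are not independent molecules, and depth was 42085341 to 63412426 counts per library. The paper's tables of called genes paired 1822 of 32545 identifiers with symbols, and its fold changes and p-values were not used.

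CPM was the count over the library total. The contralateral test was edgeR 4.0.16 in R 4.3.3 (TMM, filterByExpr, quasi-likelihood, Benjamini-Hochberg threshold 0.05), with DESeq2 1.42.0 and limma 3.58.1 as alternatives. On simulated contralateral counts, edgeR recovered 96 of 200 genes changed by 1 log2 unit, with 7 false calls. DESeq2 with its prior recovered 136 with 47 false calls, and limma voom with sample weights 88 with 5. A standard error was the log2 fold change over the root of F. Hemispheres were also fitted with the rat as a block, since the pairs of a rat correlated at 0.246 to 0.758 after group means were removed. Correlations between different rats were negative, which removing the group means tends to produce by itself, so nothing is read from them. Alternatives left out each library and changed the scaling, filter and thresholds.

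The members, lists and role groups were chosen with earlier results of these data known. Genes given with values were the 12 named members with the lowest share of sham, the 8 most abundant, those in the lists, the 5 with the smallest contralateral p, and those next to the limit on the ratio. The other members are given by their share of sham, named after their values were seen. Lists of oligodendrocyte precursor, endothelial and choroid plexus genes paired 0, 4 and 1 symbols and held 0 members. No annotation of Rnor 6.0 was used here, so coordinates are those of RefSeq promoters in GRCr8. Surgeries ran in weekly groups, which could not be entered as a batch.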

Additional observations from a re-analysis of the deposited data

Results flagged for a closer look

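In 116 groups of CPM values (29 members, 4 groups each) 11 held a library far from the rest by Dixon's test, or 9.48%. The test's nominal rate of about 1 in 20 cannot be set against this share. The members share the same libraries, and the ipsilateral values chose them. No explanation was tested for any of them.

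In the injured cortex, rat 83 stood high for AABR07027243.1 (2.35 CPM, others 0.18 to 0.798), Aifm3 (24.9 CPM, others 6.24 to 11.9) and Cckbr (12.4 CPM, others 4.36 to 5.89). Rat 85 stood low for Fndc5 (31.0 CPM, others 62.6 to 75.9) and rat 81 for Plekhb1 (161 CPM, others 208 to 225). In ipsilateral sham, rat 91 stood high for ENSRNOG00000024149 (3.26 CPM, others 1.54 to 1.76).

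In contralateral PBBI, rat 85 stood high for Adk (110.0 CPM, others 72.8 to 83.9) and ENSRNOG00000015675 (67.0 CPM, others 46.2 to 53.9), rat 88 stood high for Plekhb1 (489 CPM, others 291 to 352), and rat 81 stood low for Cckbr (5.97 CPM, others 11.9 to 12.4). In contralateral sham, rat 94 stood high for Smim5 (3.21 CPM, others 0.911 to 1.22).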

How the results depend on the processing

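The number of members moved most with the libraries and the scaling. Against 64, it was 124 with TMM-scaled CPM, 123 with RLE, 32 with a ratio of 0.5 and 49 with a sham mean of 5 CPM, and 63 to 279 when each ipsilateral library was left out (279 without PBBI rat 83, 137 without PBBI rat 85, 146 without sham rat 82, 100 without sham rat 86). The cause was not tested. Contralaterally, 0 members were called under each alternative run, 45 to 57 were lower when each library was left out, and the median log2 fold change ran from -0.26 to -0.13. Members with an unadjusted p under 0.05 numbered 8 with edgeR, 22 with limma voom with sample weights, 15 without PBBI rat 85 and 16 without sham rat 91, while the share of all genes with such a p was 2.30%, 13.3%, 5.21% and 6.50%.

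With the rat as a block (paired hemispheres), the median log2 difference between hemispheres was -0.85 in PBBI, against -0.86 unpaired, and 0.07 in sham, against 0.04, so it changed no direction. Leaving out each rat gave -0.96 to -0.79 in PBBI and -0.01 to 0.11 in sham.

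Of 29 members given with values, 22 kept the direction of their contralateral log2 fold change when each library was left out and with DESeq2 and its prior. The other alternatives were not compared member by member. The other 7, each near 0 beside its error or scarce, changed sign when single libraries were left out, within -0.035 to 0.25 for Alb, -0.074 to 0.11 for Aldoc, -0.29 to 0.014 for Cldn10, -0.21 to 0.023 for ENSRNOG00000015675, -0.72 to 0.015 for Igfn1, -0.30 to 0.13 for Prss55 and -0.11 to 0.13 for Sepp1. Depth limits the scarce members most, since 10 had a sham mean under 2 CPM.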
